A study of Mus musculus with 25 samples.

Results

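Tubulins, the proteins that bind, organise and cut microtubules, and the motors that run on them were followed across sorted cortical neurons after spinal cord injury (SCI) with and without the transcription factor REST. Members were picked by gene symbol alone, taking the tubulins and gamma-tubulin complex, the Map genes of the microtubule-associated class with Mapt and Dclk1, neurofilaments, EB (Mapre) and Clasp plus-end proteins, katanins, kinesins with their light chains, dynein chains and dynactin subunits. The rule found 78 genes among the 9931 with a symbol. Dcx and Nefh, which it also covers, were not analysed here. All mice were young adult C57BL/6 animals of both sexes, homozygous for floxed Rest and carrying a Cre-dependent tdTomato reporter, and all received an adeno-associated virus in the sensorimotor cortex. The virus carried GFP under the synapsin promoter in the group called WT, so WT neurons kept intact but floxed Rest alleles, and Cre under the same promoter in the group called REST cKO. Mice then had a sham operation or a complete crush of the thoracic spinal cord. GFP-positive or tdTomato-positive cells were sorted, about 1000 cells a library. Injured libraries are labelled day 1, 3 or 7 and all sham libraries day 0. Each comparison of injury with sham therefore also differs in labelled day, and the 2 cannot be told apart. There were 4 WT sham libraries and 3 each of WT at days 1, 3 and 7. REST cKO had 3 sham libraries, 2 at day 1, 4 at day 3 and 3 at day 7, which makes 25 libraries in all. The 2 sorts rested on different fluorescent proteins, so the reporter and the genotype cannot be told apart. The WT day 7 mice were all female, and the REST cKO sham and day 7 mice were all male.

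Microtubules are hollow polymers of alpha- and beta-tubulin pairs that run the length of an axon and serve as its tracks and its scaffold. Tau (Mapt) and other microtubule-associated proteins stabilise or space them, plus-end proteins steer their growing tips, katanins sever them and some kinesins take them apart, while other kinesins carry cargo towards the axon tip and dynein with dynactin carries it back. Neurofilaments are a separate set of axonal filaments that set axon calibre. Tubulin genes are classically switched on in peripheral neurons that regrow a cut axon, and REST is a repressor of neuronal genes that binds a DNA element called RE1.

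The element's letters can be looked for at the members' start sites, and 3 promoter windows are printed to show how they differ. Each runs from 250 bases before to 50 bases after the RefSeq start (GRCm38.p6), 5′ to 3′ on the gene's strand, and capitals mark the letters of either part of the element, TCAGCACC or GGACAGC, here as their reverse complements GGTGCTGA and GCTGTCC. Tubb3, neuronal beta-III-tubulin, holds both parts (chr8:123411303-123411602, plus strand). Kif5c, a neuronal kinesin-1 heavy chain, holds the first part downstream of its start (chr2:49619036-49619335, plus strand). Tuba1a, the main alpha-tubulin of growing neurons, holds neither (chr15:98953452-98953751, minus strand).
Tubb3: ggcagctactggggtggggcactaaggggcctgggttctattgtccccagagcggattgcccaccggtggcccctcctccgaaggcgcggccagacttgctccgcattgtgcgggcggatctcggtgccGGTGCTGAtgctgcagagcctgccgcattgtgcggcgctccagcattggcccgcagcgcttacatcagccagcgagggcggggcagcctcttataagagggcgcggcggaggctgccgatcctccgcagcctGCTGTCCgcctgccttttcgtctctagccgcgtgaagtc
Kif5c: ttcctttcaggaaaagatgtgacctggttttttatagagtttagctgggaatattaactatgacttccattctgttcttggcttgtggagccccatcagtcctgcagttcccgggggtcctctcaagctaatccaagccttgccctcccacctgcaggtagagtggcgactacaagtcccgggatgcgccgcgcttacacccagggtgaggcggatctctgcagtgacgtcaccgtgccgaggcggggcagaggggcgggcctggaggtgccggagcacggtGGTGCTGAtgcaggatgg
Tuba1a: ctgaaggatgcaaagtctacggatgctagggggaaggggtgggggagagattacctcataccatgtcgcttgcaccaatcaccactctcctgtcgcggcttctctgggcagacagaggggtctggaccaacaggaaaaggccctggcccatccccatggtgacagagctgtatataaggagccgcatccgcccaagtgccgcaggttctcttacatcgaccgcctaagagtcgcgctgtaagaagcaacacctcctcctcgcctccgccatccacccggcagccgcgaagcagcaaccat
RefSeq gave 66 such windows for 55 of the 78 members. TCAGCACC stood on either strand in 4 of the 66 windows (6.06%), those of Dctn1, Kif5c, Tubb3 and Tubgcp5, against 1.65% of all 32851 mouse windows. GGACAGC stood in 4 (6.06%), those of Dctn1, Kif1c, Map2 and Tubb3, against 6.56% of all windows. The joined form with both parts in their usual order and spacing, CAGCACC and GGACAG with 2 bases between them, was in 0 member windows and in 12 windows overall. A match is a description of letters only, and these windows say nothing of sites elsewhere in a gene.

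Values were the submitters' normalised counts, which are taken to be on a log2 scale because a plot axis of the study names it; the file states no base. Over all genes they ran from -4.82 to 5.16, and read depth is unknown. Values under -2, at the bottom of the scale, made up 2.77% to 29.5% of a library, the highest share being in 1 WT day 3 library, where 25.6% of the members were under -2. Rest itself stood between -2.65 and -0.04 in the 12 REST cKO libraries and between -1.55 and 2.88 in the 13 WT libraries; the libraries count 3′ ends, and since the sources used here do not say which exon is floxed, this checks nothing about the deletion. The label of neurons was set against its markers (Rbfox3, Snap25, Syt1, Stmn2 and Syp). All 5 were measured, and their mean per library was lowest in WT sham (0.55 to 1.65) and reached 2.05 to 2.59 in WT day 1, 1.39 to 2.86 in REST cKO sham and 2.14 to 2.67 in REST cKO day 7. The WT day 7 libraries, at 1.29 to 1.78, overlapped the WT sham range. Of 6 astrocyte markers 3 were measured, at 0.64 to 1.09 in WT sham and 1.80 to 2.68 in REST cKO sham. All 7 microglia markers were measured and averaged 2.60 to 3.41 in every library, and their means over all libraries stood at the 95.7 to 99.6 percentile of gene means, in libraries labelled as neurons. In such bulk libraries fewer neurons and less RNA per neuron cannot be told apart.

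**Figure D1:**
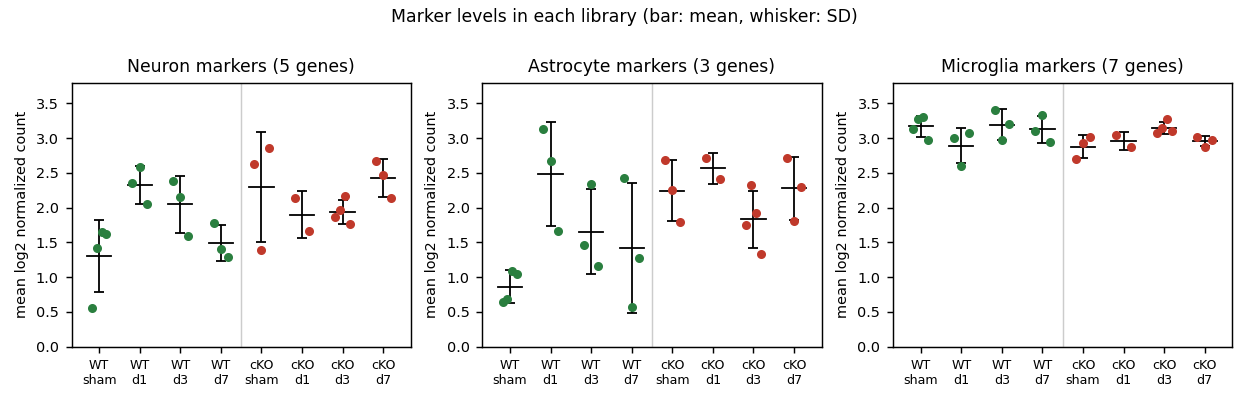
Mean log2 normalized count of the neuron, astrocyte and microglia markers in each library, by group (d1, d3 and d7 are days after SCI; green WT, red REST cKO), with the group mean as a bar and the SD as a whisker. WT sham has the lowest group mean for neurons (1.31) and for astrocytes (0.86), while microglia markers lie between 2.60 and 3.41 in all 25 libraries.

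Members differed widely in how steady they were from library to library. The 4 alpha-tubulins measured (Tuba1a, Tuba1b, Tuba1c and Tuba4a) were never under -2 in any library, with SDs over the 25 libraries of 0.28 to 1.01. Among 7 beta-tubulins 2 had a library under -2, among 8 microtubule-associated proteins 4, among 12 dynein chains 5, among 6 dynactin subunits 2, and among 16 kinesin genes not used mainly in division (Kif1bp, a kinesin-binding protein, is counted with them) 10. The 7 mitotic kinesins (Kif14, Kif18a, Kif20a, Kif22, Kif23, Kif24 and Kifc5b) had SDs of 0.72 to 1.74, with 6 that had a library under -2, as had both neurofilament genes (SDs of 1.03 and 1.70). In all, 39 of the 78 had at least 1 such library, and the SDs ran from 0.28 (Tuba1b) to 1.83 (in the kinesin group). Because the reads come from 3′ ends, the last 400 bases of each transcript were compared between genes in windows of 69 bases. Of these windows 40.7% in Tuba1a, 50.6% in Tuba1b, 56.6% in Tuba1c and 28.0% in Tubb2a also occur in another gene, as do 24.5% in Dynlt1a, 79.2% in Dynlt1f and 100% in Dynlt1c, so the split of reads within these families is uncertain. For 68 of the 78 the share was 0.

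No member passed the test in any comparison. In a limma fit over all 9931 genes, with 8 group means and the submitters' 2 sequencing components, 0 of 78 members reached an adjusted p under 0.1 in 11 comparisons, where between 0 and 3 of all genes did (0.0302% in REST cKO against WT sham, 0.0201% at day 3 in REST cKO and in the day 7 interaction, 0.0101% at day 3 in WT, and 0% elsewhere), and 35 members (44.9%) had an unadjusted p under 0.05 in at least 1 comparison, beside 35.5% of all genes. Each comparison is therefore described by its library values, its fitted log2 difference with its standard error (SE) and its limma p, and members are named where that unadjusted p was under 0.05 and the libraries of the groups did not overlap, with at most 5 in each direction. The study counts its replicates in mice, but the labels do not tie each library to a mouse, so the p-values measure the spread between these libraries. Library values are given in the order of the submitters' sample numbers. Differences within a batch or a sex are plain differences of library means, without the sequencing components, and are not the fitted differences.

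**Figure D2:**
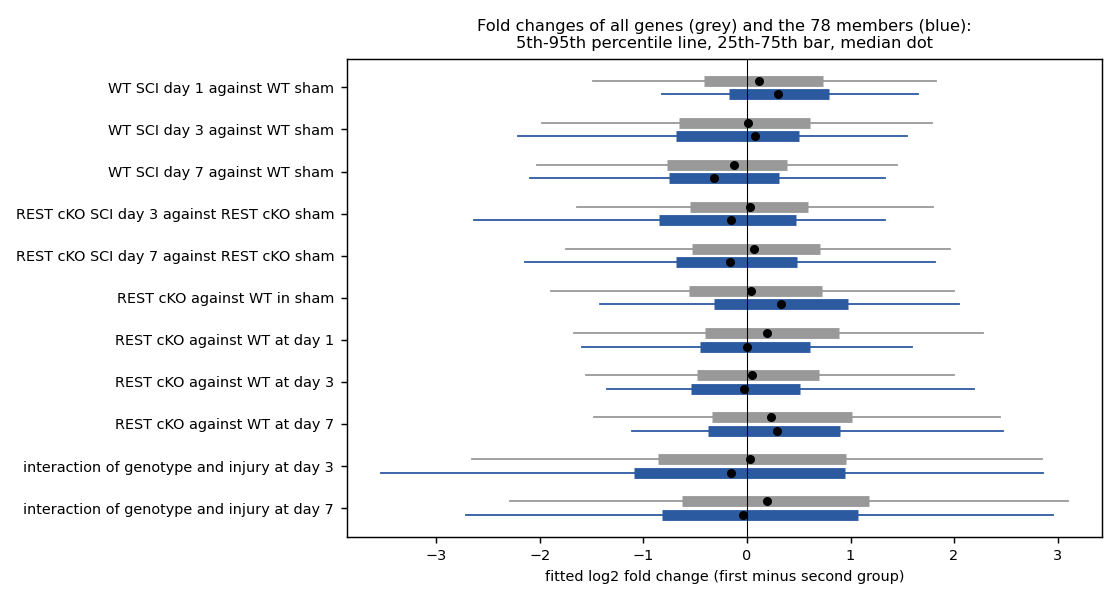
Fitted log2 fold changes of all 9931 genes (grey) and the 78 members (blue) in the 11 comparisons: the line spans the 5th to 95th percentile, the bar the 25th to 75th, and the dot is the median. The members' medians lie between -0.32 and 0.33 and those of all genes between -0.12 and 0.23.

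**Figure D3:**
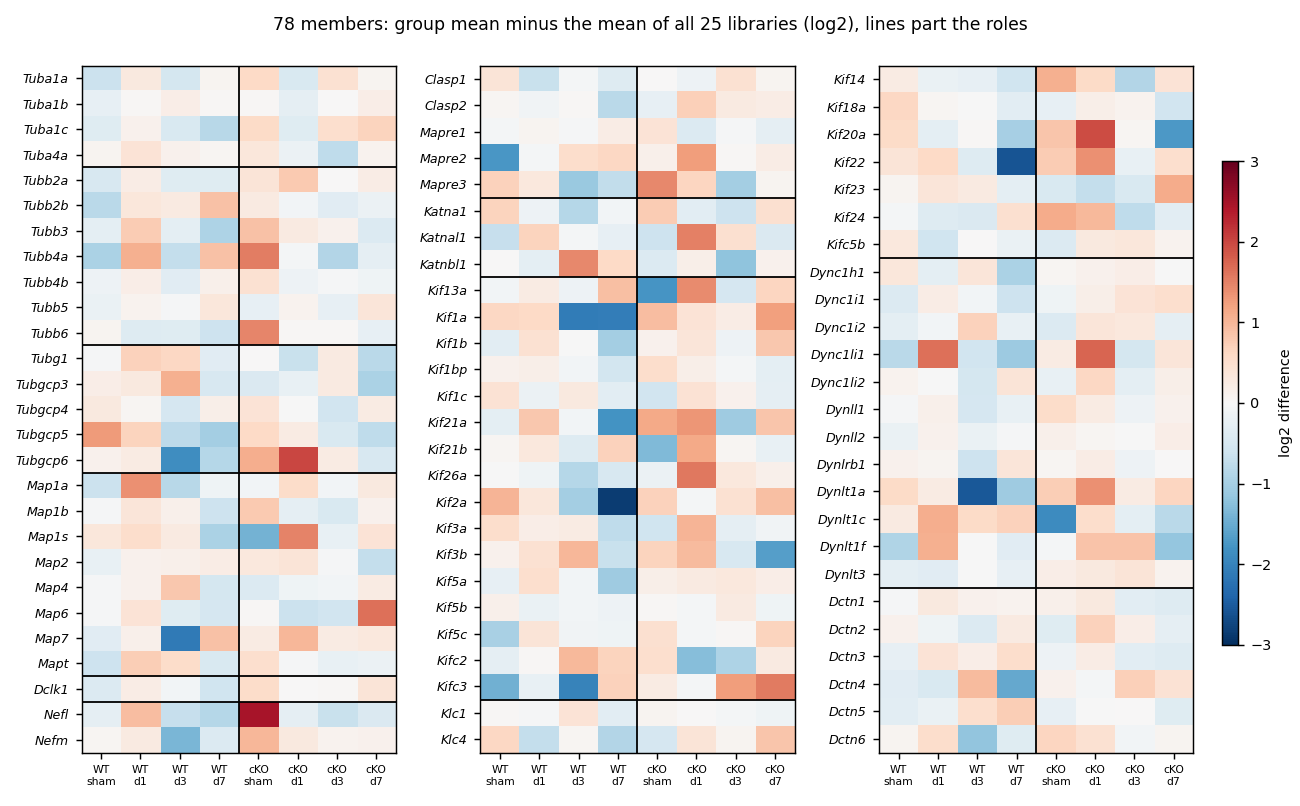
Group means of the 78 members on the log2 scale, each minus that gene's mean over 25 libraries, with black lines between roles (from the top left: alpha, beta, gamma tubulins, microtubule-associated proteins, Dclk1, neurofilaments, plus-end proteins, katanins, kinesins, light chains, mitotic kinesins, dynein, dynactin) and between genotypes. Colours run from -3 (blue) to 3 (red); WT day 7 holds the lowest of the 8 group means for 22 members (28.2%, beside 24.4% of all genes) and REST cKO day 1, with its 2 libraries, the highest for 21 (26.9%, beside 27.3%).

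The first comparison asked what 1 day of injury did to WT neurons. Mapt, which encodes tau, stood at 0.99, 1.59, 1.52 and 1.42 in WT sham and at 2.33, 3.08 and 2.80 in WT day 1. Every injured library was above every sham library, a difference of 1.46 (SE 0.351, limma adjusted p = 0.366). Tuba1a stood at 1.58, 2.58, 2.45 and 2.78 in sham and at 3.36, 3.43 and 3.04 at day 1. Its difference was 1.00 (SE 0.269, limma adjusted p = 0.55), with the split of reads among alpha-tubulins uncertain as above. Kif5c, whose promoter is printed above, was at 0.06, 0.42, 0.87 and 0.94 in sham and at 2.40, 2.10 and 1.31 at day 1, again without overlap (difference 1.49, SE 0.519, limma adjusted p = 0.636). Map1a, which binds along axonal and dendritic microtubules, was at -0.82, 0.05, -0.51 and -1.18 in sham and at 1.00, 1.47 and 1.73 at day 1 (difference 2.51, SE 1.17, limma adjusted p = 0.747). Dync1li1, a light intermediate chain of dynein, was at -0.70, -3.03, 1.34 and 0.22 in sham and at 1.80, 2.04 and 1.88 at day 1. Clasp1, a plus-end protein that stabilises microtubules, was the named member with lower values, at 1.97, 1.67, 1.99 and 0.77 in sham and 0.58, 0.47 and 0.56 at day 1. The groups did not overlap for 7 of 78 members, beside 7.02% of all genes. An unadjusted p under 0.05 was found for 5 higher and 1 lower of the 78, beside 3.92% of all genes higher and 2.52% lower. The members' median difference was 0.30, against 0.12 for all genes, and 52 of 78 members (66.7%) had a positive difference, beside 55.9% of all genes. By role these were 8 of 8 microtubule-associated proteins, 4 of 4 alpha-tubulins and 6 of 7 beta-tubulins, but 1 of 3 katanins, 2 of 7 mitotic kinesins and 0 of 2 kinesin light chains, none past the adjusted threshold. Marker genes of several cell types had positive differences at day 1 too, with a median of 0.94 over the 5 neuron markers (5 of 5 positive), 2.25 over the 3 astrocyte markers (3 of 3) and 2.05 over the 6 oligodendrocyte markers (6 of 6), while that of the 7 microglia markers was -0.32. The part of the glial markers in these values was not tested. With the mean of the neuron markers added as a term, an alternative chosen after seeing the data, the differences were 1.23 for Mapt, 0.38 for Tuba1a, 0.78 for Kif5c, 4.00 for Map1a, 1.28 for Dync1li1 and -1.12 for Clasp1. Only Mapt and Map1a among them kept an unadjusted p under 0.05. In that fit 2 members were higher and 0 lower at that p, beside 2.70% and 2.42% of all genes. Within batches 1 and 2, as labelled, Mapt differed by 1.42 and 1.33, Tuba1a by 1.32 and 0.42, Kif5c by 2.01 and 0.41, Map1a by 1.62 and 2.58, Dync1li1 by 3.79 and 1.10 and Clasp1 by -1.29 and -0.82.

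**Figure D4:**
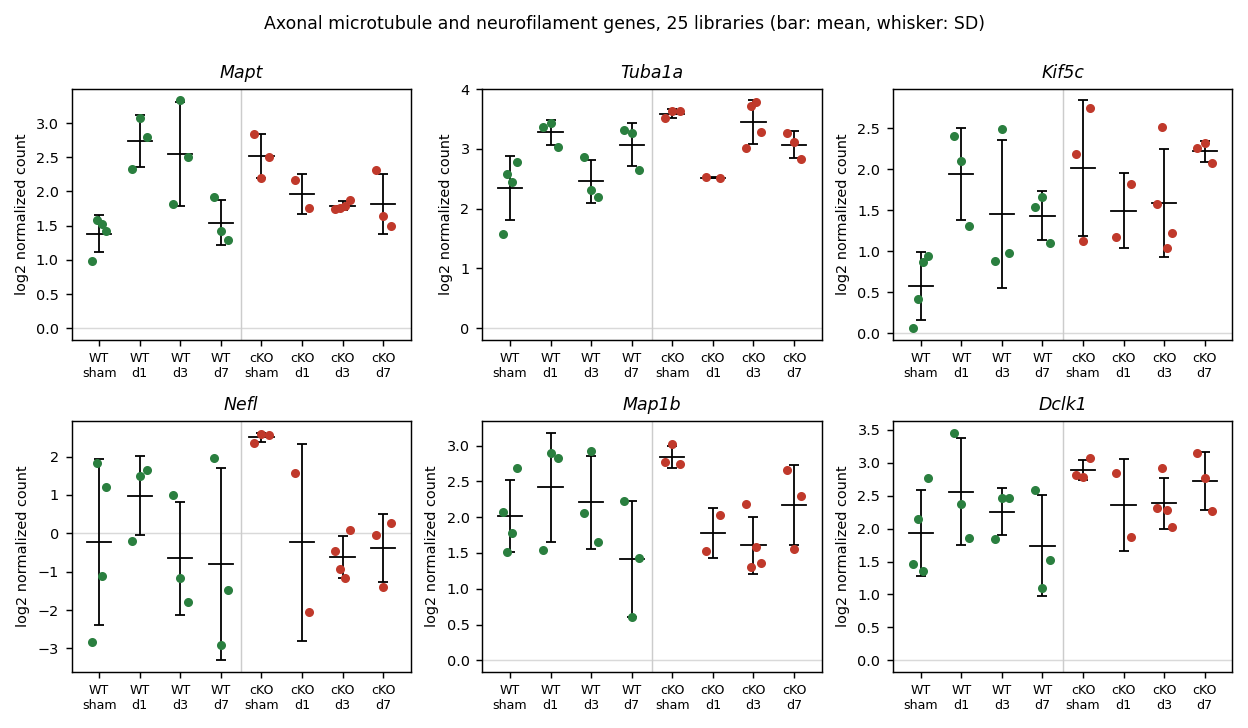
Log2 normalized count of Mapt, Tuba1a, Kif5c, Nefl, Map1b and Dclk1 in each library by group (green WT, red REST cKO), with the group mean as a bar and the SD as a whisker; the vertical scales differ. The 4 WT sham libraries of Mapt (0.99 to 1.59) and Kif5c (0.06 to 0.94) lie below all WT day 1 and REST cKO sham libraries.

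At day 3 the WT values of Mapt lay above sham and those of Tuba1a among them, in a comparison that shares the WT sham libraries with the first. Mapt was at 1.82, 3.33 and 2.50, still above all 4 sham libraries, with a difference of 1.49 (SE 0.375, limma adjusted p = 0.46). Tuba1a was at 2.86, 2.31 and 2.20, within the sham range but for 1 library, and its difference was 0.10 (SE 0.288). Map4, a microtubule-associated protein of most cell types, was at 1.38, 2.05, 2.47 and 1.66 in sham and 2.75, 2.55 and 2.90 at day 3 (difference 0.86, limma adjusted p = 0.713). Map7, a protein that recruits kinesin-1 to microtubules, was at 0.51, -0.07, -0.20 and -0.26 in sham and -2.19, -1.94 and -1.23 at day 3. Dynlt1a, a dynein light chain, was at 1.14, 1.37, 0.78 and -0.07 in sham and -3.26, -2.55 and -1.07 at day 3. These low values were not confined to the WT day 3 library rich in values under -2, but the 3′ end of Dynlt1a is shared with its near copies. Without overlap there were 5 of 78 members, beside 6.54% of all genes, and at an unadjusted p under 0.05 there were 4 higher and 6 lower, beside 3.64% and 3.26%. Without WT day 3 sample 16 they were 5 and 3, beside 3.82% and 4.15%. The median difference of members was 0.08, against 0.01. Neuron markers had a median difference of 0.93 here (5 of 5 positive), astrocyte markers one of 1.03 (3 of 3) and endothelial markers one of 0.80 (5 of 5), and the part of the glial and endothelial markers was not tested. With the neuron markers as a term the differences were 1.32 for Mapt, 0.47 for Map4, -2.49 for Map7 and -2.95 for Dynlt1a, with 3 members higher and 4 lower, beside 2.26% and 2.70% of all genes. Map4 and Dynlt1a no longer had an unadjusted p under 0.05 in that fit. The Mapt difference was 0.53 within batch 1 and 1.86 within batch 2, each with 1 injured library, and that of Map4 was 1.04 and 0.49. Among females, with 1 injured library, Mapt differed by 0.26 and Map4 by 0.49. Among males the values were 1.71 and 1.21.

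At day 7 Mapt stood at 1.92, 1.42 and 1.29 in WT, around its sham values, and the widest gap was that of a kinesin. Kif2a, a kinesin that takes microtubule ends apart rather than carrying cargo, was at 0.92, 0.88, 2.71 and 0.54 in WT sham and at -3.48, -3.15 and -1.24 in WT day 7. The difference was -4.30 (SE 1.02, limma adjusted p = 0.267), and 2 of the 3 injured libraries sat in the low range where read numbers are not known. Kif22, a chromosome-binding kinesin of dividing cells, was at 0.20, 2.15, -0.44 and -0.05 in sham and at -1.59, -3.16 and -2.77 at day 7. Of 5 markers of dividing cells only Top2a was measured, with a mean of -1.67 over the libraries. Mapre2, an end-binding protein of growing plus ends, was higher, at 0.96, -3.12, -0.07 and 0.31 in sham and 1.92, 2.51 and 1.24 at day 7 (difference 2.88, SE 0.732, limma adjusted p = 0.267). Its -3.12 in 1 sham library widened that difference, which was 1.98 at its lowest when 1 library was left out. Kif1a, a carrier of synaptic vesicle precursors, overlapped between groups, at 0.01, 2.09, 2.52 and -1.33 in sham and -2.95, -2.99 and 0.36 at day 7. Members without overlap numbered 6 of 78, beside 6.87% of all genes, and 3 were higher and 4 lower at an unadjusted p under 0.05, beside 2.16% and 4.72%. The members' median was -0.32, against -0.12 for all genes. The WT day 7 mice were all female; against the 2 female sham libraries alone the difference of Kif2a was -4.42, and within batches 1 and 2 it was -4.22 and -2.86, while Mapre2 differed by 3.29 and 1.12. Marker medians were 0.23 for neurons (5 of 5 positive), 0.66 for astrocytes (2 of 3), 0.51 for endothelium (5 of 5) and 0.42 for oligodendrocytes (5 of 6), and the part of the glial and endothelial ones was not tested. With the neuron markers as a term, Kif2a differed by -4.54, Kif22 by -2.72 and Mapre2 by 2.83, and 4 members were higher and 6 lower, beside 2.12% and 5.28% of all genes.

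Loss of REST without injury was tested by comparing the sham groups, which again uses the WT sham libraries. Tuba1a was at 3.51, 3.63 and 3.63 in REST cKO sham, above all 4 WT sham libraries (1.58 to 2.78), and at 1.23 (SE 0.297, limma adjusted p = 0.188) it came nearest to the threshold of the members here. Mapt was at 2.84, 2.20 and 2.50, above the WT sham range of 0.99 to 1.59, with a difference of 1.50 (SE 0.387, limma adjusted p = 0.298). WT sham had the lowest mean of the 8 groups for Tuba1a (2.35), Mapt (1.38) and Kif5c (0.57). Nefl, the light neurofilament subunit, was at 2.36, 2.59 and 2.56 in REST cKO sham and at -2.84, 1.84, -1.10 and 1.20 in WT sham. Its difference was 3.35 (SE 1.38, limma adjusted p = 0.629), and the WT sham libraries were far apart where the REST cKO sham libraries were close together. Kif5c was at 2.18, 1.12 and 2.74 (difference 1.75, adjusted p = 0.535). Dclk1, a doublecortin-like kinase that binds microtubules, was at 2.82, 2.78 and 3.07 in REST cKO sham and at 1.47, 2.15, 1.35 and 2.77 in WT sham (difference 1.16, limma adjusted p = 0.624). Map1b, a microtubule-associated protein of growing axons, was at 2.77, 3.02 and 2.74 against 2.07, 1.52, 1.78 and 2.69 in WT sham, with a difference of 1.10 (limma adjusted p = 0.686).

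In this comparison 9 of 78 members did not overlap, beside 7.86% of all genes. An unadjusted p under 0.05 was found for 9 higher and 1 lower, beside 3.67% of all genes higher and 3.24% lower. The median difference was 0.33, against 0.04 for all genes. Neuron markers were higher in REST cKO sham by a median of 1.08 (5 of 5 positive) and the 3 astrocyte markers by 1.88 (3 of 3). The medians were 0.82 for excitatory neurons (3 of 3) and 0.92 for inhibitory neurons (3 of 3). They were 0.61 for endothelium (5 of 5) and -0.27 for microglia (0 of 7). The part of the glial and endothelial markers in these values was not tested. With the neuron marker mean as a term, the differences were 0.59 for Tuba1a, 1.27 for Mapt, 1.51 for Nefl, 1.02 for Kif5c and 0.69 for Dclk1. Of these only Mapt kept an unadjusted p under 0.05. In that fit 4 members were higher and 2 lower at that p, beside 3.25% and 3.84% of all genes. Without REST cKO sham sample 6 there were 9 higher and 5 lower, beside 3.60% and 3.44%. All REST cKO sham mice were male. Against the 2 male WT sham libraries the differences of library means were 1.41 for Tuba1a, 1.31 for Mapt and 3.33 for Nefl. Over all libraries of these groups such differences were 1.24, 1.13 and 2.73. Within batches 1 and 2, each with 1 REST cKO library, they were 1.43 and 1.01 for Tuba1a, 1.55 and 0.72 for Mapt, 2.86 and 2.54 for Nefl, 1.01 and 0.72 for Dclk1, and 1.94 and 0.22 for Kif5c.

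REST cKO and WT were then compared within each day after injury. At day 1, with 2 REST cKO libraries, Tuba1a was at 2.53 and 2.51, below the 3 WT libraries (3.04 to 3.43), a difference of -0.82 (SE 0.347, limma adjusted p = 0.999). There 10 of 78 members did not overlap, beside 18.6% of all genes, and 1 was higher and 1 lower at an unadjusted p under 0.05, beside 2.81% and 0.997%. The median difference of neuron markers was -0.39 there, and with their mean as a term Tuba1a differed by -0.63, with 1 member higher and 0 lower, beside 3.36% and 1.05% of all genes. Without REST cKO sample 19 the counts were 0 and 0, beside 3.19% and 0.795%, and without sample 25 they were 2 and 1, beside 2.26% and 1.83%. At day 3 the order of Tuba1a was the other way round. REST cKO libraries stood at 3.01, 3.71, 3.78 and 3.28 and WT at 2.86, 2.31 and 2.20, a difference of 1.00 (SE 0.276, limma adjusted p = 0.642). Map7 (-0.45, 1.30, 0.44 and 1.00) and Dynlt1a (-0.35, 2.10, 0.76 and -0.54) in REST cKO day 3 lay above the WT day 3 libraries given above, with differences of 2.66 and 3.34. Katnbl1, a regulatory katanin-like subunit, was at 1.00, 2.57 and 1.28 in WT day 3 and at -2.96, -0.86, -0.76 and 0.43 in REST cKO day 3 (difference -3.20, SE 1.05, limma adjusted p = 0.65). Map4 was at 2.24, 1.89, 1.52 and 1.71 in REST cKO, below WT, with a difference of -0.91 (limma adjusted p = 0.78). The members' median was -0.03 against 0.05 for all genes; 6 of 78 did not overlap, beside 7.59%, and 5 were higher and 5 lower at an unadjusted p under 0.05, beside 3.81% and 2.57%. Without WT sample 22 there were 8 and 5, beside 5.52% and 2.58%. Without WT sample 16 or sample 5 there were 6 and 3, beside 4.86% and 2.84% or 2.99% and 2.46%, and without REST cKO sample 9 there were 5 and 3, beside 2.90% and 1.69%. Within batches 1, 2 and 3 the differences were 0.15, 1.44 and 1.08 for Tuba1a, 1.74, 2.82 and 2.24 for Map7, 2.91, 3.98 and 0.54 for Dynlt1a, -3.96, -3.38 and -0.85 for Katnbl1 and -0.52, -0.85 and -1.19 for Map4. REST cKO had 3 female libraries and 1 male here, and WT 1 and 2. Among females and males Tuba1a differed by 0.47 and 1.53, Map7 by 2.81 and 2.03 and Dynlt1a by 3.66 and 2.57. Katnbl1 differed by -2.13 and -2.68 and Map4 by -0.81 and -1.21. The neuron markers had a median difference of -0.20 and the 3 excitatory markers one of -0.61 (0 of 3 positive). With the neuron marker term the differences were 1.14 for Tuba1a, 2.76 for Map7, 3.12 for Dynlt1a, -3.08 for Katnbl1 and -0.80 for Map4, with 6 members higher and 3 lower, beside 3.77% and 2.15% of all genes. Map4 no longer had an unadjusted p under 0.05 there.

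At day 7 the 4 members named by the rule were kinesins, in a comparison that shares its WT libraries with the day 7 test above. Kif2a was at 0.42, 1.78 and 1.23 in REST cKO day 7 and at -3.48, -3.15 and -1.24 in WT day 7, a difference of 4.08 (SE 1.08, limma adjusted p = 0.183). Kif1b, which carries mitochondria and synaptic vesicle precursors, was at 2.62, 3.65 and 2.56 in REST cKO and 1.85, 0.47 and 1.00 in WT (difference 2.00, SE 0.583, limma adjusted p = 0.232). Kif21a, a kinesin that also curbs microtubule growth, was at 2.57, 1.27 and 1.43 against -0.05, -0.18 and -2.35 in WT. Kif22 was at 1.28, 0.97 and -0.49 against -1.59, -3.16 and -2.77 in WT. Kif1a was at 2.24, 2.00 and 0.09 against -2.95, -2.99 and 0.36, which overlapped, with a difference of 3.70 (SE 1.13, limma adjusted p = 0.238). Of the 16 kinesin genes not used mainly in division, 4 had an unadjusted p under 0.05 and all 4 were higher in REST cKO. Among all members 6 were higher and 0 lower at that p, beside 7.73% of all genes higher and 2.22% lower. Without WT sample 4 there were 11 higher and 0 lower, beside 8.89% and 2.13%, and without REST cKO sample 26 there were 10 and 1, beside 7.42% and 2.94%. Without overlap there were 10 of 78, beside 12.4% of all genes, and the medians were 0.29 for members and 0.23 for all genes. All REST cKO mice of this day were male and all WT mice female, so sex and genotype cannot be told apart at day 7. The median difference was 1.00 for neuron markers (5 of 5 positive), 0.66 for astrocyte markers (3 of 3) and -0.15 for microglia markers (0 of 7), and the part of the glial markers was not tested. With the neuron markers as a term, Kif2a differed by 3.11, Kif22 by 4.52, Kif21a by 1.49 and Kif1b by 0.37. Kif21a and Kif1b no longer had an unadjusted p under 0.05. In that fit 3 members were higher and 0 lower at that p, beside 5.21% and 2.60% of all genes. Within batches 1 and 2 Kif2a differed by 3.74 and 3.02 and Kif1b by 1.46 and 2.65.

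**Figure D5:**
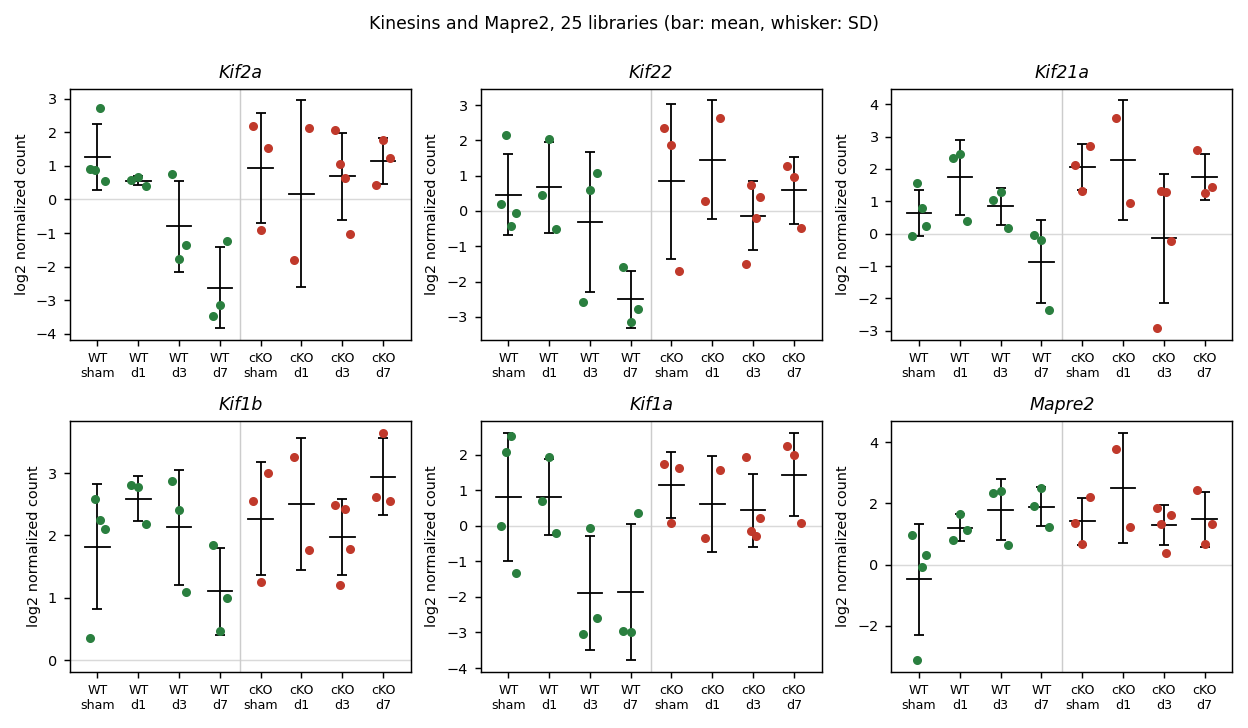
Log2 normalized count of 5 kinesin genes and Mapre2 in each library by group (green WT, red REST cKO), with the group mean as a bar and the SD as a whisker; the vertical scales differ. All 3 WT day 7 libraries of Kif2a (-3.48 to -1.24) lie below all 3 REST cKO day 7 libraries (0.42 to 1.78).

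Within REST cKO mice, injury was compared with sham at days 3 and 7, which share the REST cKO sham libraries. Nefl was at 2.36, 2.59 and 2.56 in sham, at -0.47, -0.92, -1.16 and 0.08 at day 3 and at -0.04, -1.40 and 0.27 at day 7. None of the 7 injured libraries reached the sham values, and the differences were -3.64 (SE 1.32, limma adjusted p = 0.905) and -3.23 (SE 1.37, limma adjusted p = 0.84). Map1b was at 2.18, 1.30, 1.58 and 1.36 at day 3, below its sham libraries, with a difference of -1.46 (SE 0.477, limma adjusted p = 0.843). Mapt was at 1.74, 1.76, 1.79 and 1.88 at day 3, again below sham, with a difference of -1.03 (SE 0.371, limma adjusted p = 0.905). Kif21a was at 2.13, 1.33 and 2.72 in sham and at -2.92, 1.31, 1.29 and -0.22 at day 3, where 2 of the 4 libraries were only just under the lowest sham value. Tubb5, the widely expressed beta-tubulin, was at 2.62, 2.33 and 2.31 in sham and 2.94, 3.20 and 2.94 at day 7 (difference 0.65, limma adjusted p = 0.862). At day 3, 0 members were higher and 7 lower at an unadjusted p under 0.05, beside 2.92% of all genes higher and 1.73% lower, and 10 of 78 did not overlap, beside 6.69%. Without REST cKO day 3 sample 9 the counts were 1 higher and 3 lower, beside 2.71% and 1.34%, and the difference of Kif21a was -1.64. The median was -0.15 against 0.03 for all genes. At day 7 the counts were 1 higher and 5 lower, beside 3.54% and 2.12% of all genes, and 9 of 78 did not overlap, beside 10.7%. Leaving out any 1 library left 1 to 4 lower, with 3 and 3 without REST cKO sham sample 6, beside 4.22% and 2.60%, and 1 and 1 without sample 23 of that group, beside 4.55% and 1.89%. The medians over members and over all genes were -0.16 and 0.07. Neuron markers differed from sham by a median of -0.55 at day 3 and -0.05 at day 7. For 3 markers of excitatory neurons the day 3 median was -1.03 (0 of 3 positive) and for 3 of inhibitory neurons -1.15 (0 of 3 positive), while it was -0.55 for astrocytes (0 of 3) and 0.23 for microglia (7 of 7). At day 7 the medians were -0.68 for excitatory neurons (0 of 3), 0.13 for inhibitory neurons (2 of 3) and 0.11 for astrocytes (2 of 3). They were 0.89 for oligodendrocytes (5 of 6), -0.16 for endothelium (1 of 5) and 0.06 for microglia (4 of 7). The part of these markers in the members' values was not tested. With the general neuron markers as a term the differences at day 3 were -2.83 for Nefl, -1.50 for Map1b, -0.93 for Mapt and -2.02 for Kif21a. Kif21a no longer had an unadjusted p under 0.05 there. Within batches 1, 2 and 3 the day 3 differences were -2.84, -3.63 and -2.48 for Nefl, -0.59, -1.58 and -1.38 for Map1b, -1.10, -0.42 and -0.61 for Mapt, and -5.04, -0.03 and -2.94 for Kif21a. All REST cKO sham mice were male, but only 1 of the 4 day 3 libraries was male. That library differed from sham by -3.66 for Nefl, -1.26 for Map1b, -0.72 for Mapt and -0.77 for Kif21a. Over all libraries the differences of means were -3.13, -1.24, -0.72 and -2.19.

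Whether injury acted differently in the 2 genotypes was tested by the interaction, the REST cKO change from sham minus the WT change from sham. It reuses the groups already compared, and both sham groups enter it at each day. At day 3 the interaction of Mapt was -2.52 (SE 0.585, limma adjusted p = 0.883). The Mapt libraries behind it were above sham in WT and below sham in REST cKO, as given above. Mapre2 followed with -4.40 (SE 1.26, limma adjusted p = 0.883), its libraries standing at 2.35, 2.42 and 0.64 in WT day 3, 1.35, 0.67 and 2.22 in REST cKO sham and 1.86, 1.33, 0.39 and 1.62 in REST cKO day 3. Kifc2, a neuronal kinesin with a C-terminal motor, had -3.71, Katnbl1 -3.52 and Kif21a -3.43. In all, 0 members were higher and 7 lower at an unadjusted p under 0.05, beside 2.89% and 2.26% of all genes. With REST cKO sham sample 6 left out the count became 4 higher and 5 lower, beside 3.23% and 2.41%, and with REST cKO day 3 sample 9 left out it became 1 and 3, beside 2.41% and 1.89%. With the neuron marker mean as a term the counts were 3 higher and 5 lower, beside 2.97% and 1.92%, and the interactions were -2.24 for Mapt, -4.09 for Mapre2, -2.90 for Kifc2, -2.84 for Katnbl1 and -1.58 for Kif21a, the last 3 no longer with an unadjusted p under 0.05. Without the sequencing components, where the value is that of the group means alone, Mapre2 had -2.39 and Katnbl1 -2.23. At day 7 Kif2a had an interaction of 5.25 (SE 1.62, limma adjusted p = 0.521) and Kif1a one of 4.30, while Mapre2 had -3.60, Tuba1a -1.19, Map2 -1.95, Tubb2b -2.68 and Tubb4a, a beta-tubulin of the brain, -4.16. Without REST cKO day 7 sample 13 the values of Tubb2b and Map2 were -0.73 and -1.16, and without WT sham sample 10 that of Mapre2 was -2.48, beside -2.29 without the sequencing components. Here 2 members were higher and 6 lower, beside 4.30% and 2.05% of all genes, but without REST cKO sham sample 6 there were 7 higher and 3 lower, beside 5.06% and 2.21%, and without sample 23 of that group 4 and 4, beside 5.20% and 1.85%. A sex term gave 4 and 4, beside 4.26% and 2.33%, and the neuron marker term 4 and 5, beside 4.63% and 2.15%. The members' median interaction was -0.15 at day 3 and -0.04 at day 7, against 0.03 and 0.19.

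The axonal and dendritic members followed throughout are given here in the groups not yet shown, most of them without a gap of that kind. Tubb3 stood at -0.79, 1.71, 0.21 and 0.15 in WT sham, -0.03, 1.73 and 2.43 at day 1, 0.40, 0.29 and 0.34 at day 3, and -0.43, 1.19 and -1.65 at day 7. In REST cKO it stood at 1.51, 0.96 and 2.08 in sham, 0.78 and 1.01 at day 1, 0.81, 0.66, 0.98 and 0.55 at day 3, and -0.25, 0.88 and 0.03 at day 7. Its lowest unadjusted p was 0.145, at day 1 in WT. Tubb3 overlapped between genotypes in sham and at days 1 and 7, and at day 3 the REST cKO libraries were all above WT (difference 0.34, limma adjusted p = 0.982). Dctn1, the large dynactin subunit, which holds the parts in 2 different windows, 1 in each, overlapped between genotypes in sham and at days 1, 3 and 7, with differences of 0.35 (SE 0.461), 0.15 (SE 0.538), -0.55 (SE 0.429) and -0.51 (SE 0.428).

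Tubb2a and Tubb2b are beta-tubulins of neurons that share part of their sequence. Tubb2a stood at 2.23, 1.09, 1.43 and 2.50 in WT sham, 2.92, 2.08 and 2.48 at day 1, 2.09, 1.50 and 2.21 at day 3, and 2.33, 1.62 and 1.80 at day 7. Among REST cKO libraries it stood at 3.01, 2.17 and 2.81 in sham, 3.29 and 2.86 at day 1, 2.59, 2.86, 2.21 and 1.49 at day 3, and 2.74, 2.70 and 2.06 at day 7. Its lowest unadjusted p, 0.0158, was in REST cKO against WT sham (difference 1.11, limma adjusted p = 0.593), where 1 REST cKO library lay inside the WT range. Tubb2b stood at -0.35, -0.38, 1.86 and 1.01 in WT sham, 1.92, 1.66 and 1.46 at day 1, 0.47, 1.95 and 2.43 at day 3, and 1.72, 2.27 and 2.69 at day 7. In REST cKO it stood at 2.03, 1.55 and 1.28 in sham, 0.80 and 1.73 at day 1, 1.29, 1.32, 1.12 and 0.27 at day 3, and 2.36, -1.14 and 2.28 at day 7. Its lowest unadjusted p, 0.0144, was in WT day 7 against sham (difference 1.91, limma adjusted p = 0.54), with 1 injured library inside the sham range. Tubb5 was among the steadiest beta-tubulins in WT and stood at 2.51, 2.59, 2.36 and 2.44 in WT sham, 2.94, 2.86 and 2.48 at day 1, 3.31, 2.54 and 2.02 at day 3, and 3.07, 2.67 and 3.25 at day 7. In REST cKO before day 7 it stood at 2.62, 2.33 and 2.31 in sham, 3.13 and 2.42 at day 1, and 2.14, 2.64, 2.42 and 2.51 at day 3, with its day 7 values given above.

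Map2 is the dendritic microtubule-associated protein, Map1b belongs to growing axons and Map6 makes microtubules resist cold. Map2 stood at -0.04, 1.60, 1.73 and 1.39 in WT sham, 0.91, 1.88 and 1.79 at day 1, 0.72, 2.12 and 1.83 at day 3, and 1.79, 1.53 and 1.57 at day 7. In REST cKO it stood at 2.02, 1.52 and 1.61 in sham, 1.37 and 2.19 at day 1, 1.15, 1.28, 1.07 and 1.97 at day 3, and 1.82, -0.39 and 0.60 at day 7, where 2 of the 3 day 7 libraries were the lowest of the genotype. Map1b, for which both sham groups and REST cKO day 3 were given above, stood at 1.54, 2.89 and 2.83 at WT day 1, 2.06, 2.92 and 1.65 at day 3, and 2.22, 0.60 and 1.43 at day 7. In REST cKO after injury it stood at 1.53 and 2.03 at day 1, and 2.66, 1.56 and 2.29 at day 7. Map6 scattered most of the 3 genes: it stood at 0.01, -0.12, 0.45 and -1.25 in WT sham, 0.95, 0.38 and -0.65 at day 1, -3.24, 0.50 and 1.11 at day 3, and -0.11, -2.88 and 0.92 at day 7. Among REST cKO libraries Map6 stood at 0.19, -2.04 and 1.44 in sham, -1.96 and 0.31 at day 1, 0.31, -0.08, -2.0 and -1.28 at day 3, and 2.75, 1.72 and -0.03 at day 7. Its lowest unadjusted p was 0.0667, in REST cKO against WT at day 7 (difference 2.42, limma adjusted p = 0.533).

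Nefm, the middle neurofilament subunit, had differences of the same sign as Nefl in the REST cKO sham comparisons, with overlapping libraries: 0.78 (SE 0.977) against WT sham, -0.76 (SE 0.935) at day 3 and -0.69 (SE 0.968) at day 7. Whether the 2 genes differed from each other was not tested. Nefm stood at 0.87, 1.47, 0.02 and -0.02 in WT sham, 0.90, 1.35 and 0.15 at day 1, -3.25, 0.28 and 0.40 at day 3, and -0.01, -0.06 and 0.39 at day 7. REST cKO values of Nefm stood at 0.72, 1.60 and 2.28 in sham, 1.16 and 0.49 at day 1, 1.74, 0.06, -0.04 and 0.77 at day 3, and 1.40, 0.79 and -0.22 at day 7, so injured libraries overlapped its sham libraries where those of Nefl did not. Nefl after injury in WT stood at -0.21, 1.49 and 1.65 at WT day 1, 1.00, -1.17 and -1.79 at day 3, and 1.96, -2.90 and -1.49 at day 7, and stood at 1.58 and -2.05 at day 1 in REST cKO, over about the same wide range as WT sham.

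Of the kinesin-1 heavy chains, the neuronal Kif5a stood at -0.18, -0.51, 0.29 and 0.95 in WT sham, 1.59, 1.52 and -0.40 at day 1, 0.64, -0.03 and 0.36 at day 3, and -3.11, 0.14 and 0.95 at day 7. In REST cKO it stood at 1.63, -2.07 and 2.16 in sham, 0.77 and 0.57 at day 1, 0.27, 0.25, 2.61 and -0.30 at day 3, and 0.79, 0.80 and 0.23 at day 7. Its groups overlapped in both genotypes. The ubiquitous Kif5b was the steadiest of the 3 and stood at 2.03, 1.46, 2.54 and 1.89 in WT sham, 1.30, 1.51 and 2.13 at day 1, 2.40, 1.58 and 1.31 at day 3, and 1.58, 1.65 and 1.81 at day 7. REST cKO values of Kif5b stood at 2.16, 1.50 and 1.98 in sham, 1.60 and 1.98 at day 1, 2.14, 1.60, 2.44 and 2.23 at day 3, and 1.65, 2.02 and 1.46 at day 7. Its lowest unadjusted p in any comparison was 0.355. Kif5c at the stages not given above stood at 0.88, 2.49 and 0.98 at WT day 3, and 1.54, 1.66 and 1.10 at day 7, and in REST cKO it stood at 1.17 and 1.82 at day 1, 1.57, 2.51, 1.04 and 1.22 at day 3, and 2.26, 2.32 and 2.07 at day 7. None of these libraries was as low as the lowest 3 of WT sham.

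Kif1a at the other stages stood at 0.71, 1.93 and -0.20 at WT day 1, and -3.04, -0.07 and -2.58 at day 3, and in REST cKO it stood at 1.74, 0.07 and 1.62 in sham, -0.33 and 1.58 at day 1, and 1.95, -0.15, -0.28 and 0.22 at day 3. In WT day 3 against sham its difference was -3.55 (SE 1.18, limma adjusted p = 0.603) with overlapping libraries. Dync1h1, the heavy chain that gives dynein its force, stood at 3.12, 1.19, 2.35 and 1.86 in WT sham, 1.44, 1.48 and 1.53 at day 1, 2.30, 1.82 and 2.33 at day 3, and 1.77, 0.80 and -0.04 at day 7. REST cKO values of Dync1h1 stood at 0.94, 2.28 and 2.31 in sham, 1.95 and 1.88 at day 1, 1.46, 2.71, 1.68 and 2.12 at day 3, and 2.86, 1.50 and 0.94 at day 7. Its lowest unadjusted p, 0.0299, was in WT day 7 against sham (difference -1.24, limma adjusted p = 0.64).

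Some members had like patterns over the 25 libraries, given as a description, since the libraries share groups, cell makeup and processing. The genes nearest to Mapt were Map1b (Pearson r = 0.57), Map2 (0.52) and Kif5c (0.52). Map1b (0.57), Kif1bp (0.56) and Dclk1 (0.49) were nearest to Nefl, while Dctn6 (0.83), Tubb4b (0.65) and Tuba1c (0.64) were nearest to Nefm. These last 3 values rested in part on WT day 3 sample 5, the library richest in values under -2, where Nefm stood at -3.25 and Dctn6 at -2.66; over the other 24 libraries, an alternative chosen after seeing the data, they were 0.60, 0.39 and 0.42. Tubb3 was nearest to Tubgcp5 (0.51), Kif3b (0.48) and Mapt (0.47). The median r between all pairs of members was 0.04, and between pairs of microtubule-associated proteins 0.18, against 0.02 for all genes.

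A second list of other microtubule genes, among them enzymes that modify tubulin, tubulin-folding cofactors, CLIP and CAMSAP end proteins and dynein adaptors, gave the pathway around the members. Of its 53 genes 42 were measured, and 0 passed the adjusted threshold in any comparison. At an unadjusted p under 0.05 its counts were 4 higher and 0 lower at WT day 1, beside 3.92% and 2.52% of all genes, 1 and 3 at WT day 3, beside 3.64% and 3.26%, and 1 and 1 at WT day 7, beside 2.16% and 4.72%. REST cKO against WT gave 4 higher and 1 lower in sham, beside 3.67% and 3.24%, 0 and 1 at day 1, beside 2.81% and 0.997%, 1 and 2 at day 3, beside 3.81% and 2.57%, and 3 and 0 at day 7, beside 7.73% and 2.22%. After injury in REST cKO 1 was higher and 0 lower at day 3, beside 2.92% and 1.73%, and likewise at day 7, beside 3.54% and 2.12%. The interactions gave 2 and 2 at day 3, beside 2.89% and 2.26%, and 1 and 1 at day 7, beside 4.30% and 2.05%.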

How the data were processed

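Neurons of the sensorimotor cortex were sorted, RNA of about 1000 cells a library was turned into QuantSeq 3′ libraries, and, per the labels and the study's methods, the authors aligned reads with STAR to mm10, quantified them with Salmon, scaled them with DESeq2, removed batch factors and genes without counts in most samples, and regressed out 2 sequencing components. The deposited table holds the resulting log2 values for 9955 rows, of which 24 without a symbol were left out. Its other columns hold the authors' own comparisons as log2 fold changes and p-values, and these deposited p-values and fold changes were not used. Depth is unknown.

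Here limma 3.58.1 (R 4.3.3) fitted the log2 values of 9931 genes on 8 group means and the labelled components, letting the prior variance follow mean expression, with p-values adjusted over all genes (Benjamini-Hochberg), and was tested on simulated data. Only 140 genes (1.41%) and 0 members still correlated with a component (absolute r above 1e-05). Members matched GENCODE M21 by gene ID (78 of 78). No 2 libraries held identical values. Members, gene lists and markers were chosen with earlier results of these data known. Named members were a list of axonal genes shown throughout and, per comparison, up to 5 in each direction with the largest difference among those with an unadjusted p under 0.05 and no overlap (interactions: that p alone). Alternatives changed covariates, weights, filter, normalization, samples, trend and libraries; terms for neuron markers and for the share of values under -2 were chosen after seeing the data.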

Additional observations from a re-analysis of the deposited data

How the results depend on the processing

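Counts of all genes past adjusted p under 0.1 were small and moved with most settings; the cause was not tested. They were 0 for WT day 1, 1 for WT day 3, 0 for WT day 7, 2 and 0 for REST cKO days 3 and 7 against sham, 3 for REST cKO against WT in sham, 0 at days 1, 3 and 7, and 0 and 2 for the interactions. Without the sequencing components they were 0 for WT day 3, 5 for WT day 7, 0 for REST cKO day 3, 0 for sham, 1 for the genotypes at day 7 and 0 for the day 7 interaction. A batch term gave 0 for WT day 3, 1 for REST cKO day 3, 2 for genotypes at day 7 and 0 for the day 7 interaction. A sex term gave 2 for WT day 1, 1 for WT day 7, 0 for REST cKO day 3, 6 for sham and 0 for the interaction. Library weights gave 24 for WT day 1, 0 for WT day 3, 6 for REST cKO day 7, 7 for sham and 4 for the interaction. Genes with a mean of at least 0 gave 1 for REST cKO day 3, 5 for genotypes at day 7 and 0 for the interaction. Quantile normalization gave 1 for WT day 1, 0 for WT day 3, 9 for sham and 1 for the interaction. Fitting only the groups compared, without the components, gave 0 for WT day 3, REST cKO day 3 and sham, and 1 for genotypes at day 7 and for the interaction. No trend gave 0 for WT day 3, REST cKO day 3 and sham, 2 for WT day 7 and 4 for the interaction. The neuron marker term gave 0 for WT day 3, sham and the interaction, 6 for WT day 7, and 5 for REST cKO day 3 and for genotypes at day 7. The term for values under -2 gave 1 for WT day 1, 0 for WT day 3 and 15 for genotypes at day 7. Leaving out 1 library gave 0 to 3 for WT day 1, 0 to 5 for WT day 3, 0 to 7 for WT day 7, 0 to 12 and 0 to 7 for REST cKO days 3 and 7, 0 to 13 for sham, 0 to 3 and 0 to 21 for genotypes at days 3 and 7 and 0 to 6 for the day 7 interaction. The highest came without WT day 1 sample 1, WT day 3 sample 22, WT day 7 sample 4 or 7, and REST cKO sham sample 23.

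In each of 2 settings 1 member passed: Mapt at WT day 1 with library weights (adjusted p = 0.0299, against 0.204 to 0.953 in the other settings and 0.411 to 0.934 with 1 library left out), and Tuba1a in REST cKO against WT sham with quantile normalization (adjusted p = 0.0494, against 0.172 to 0.759 and 0.168 to 0.544). Over 46 differences of named members and 850 alternatives, 0 changed sign. That direction is partly fixed by naming members whose groups do not overlap. Leaving out a REST cKO day 1 library leaves 1, assumed to vary like the other groups. Tubb4a was not in the filtered fit. No paired analysis was possible because the groups share no replicate numbers; batch, which they do share, entered as a term.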

Other observations

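Other members met an unadjusted p under 0.05 with overlapping libraries and are given as values. Mapre2 stood at 2.35, 2.42 and 0.64 in WT day 3 and at 0.96, -3.12, -0.07 and 0.31 in WT sham, a difference of 3.31 (SE 0.807, limma adjusted p = 0.46). In REST cKO day 1 it stood at 3.79 and 1.24, against 0.80, 1.67 and 1.15 in WT day 1 (fitted difference 2.45, SE 0.972, limma adjusted p = 0.999, but 1.31 between the group means without the sequencing components). Kif2a was at 0.75, -1.78 and -1.36 in WT day 3, with a mean between those of sham and day 7 (difference from sham -2.81, SE 1.12, limma adjusted p = 0.629).

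In WT day 7, 22 of the 78 members (28.2%) had the lowest of their 8 group means, as did 24.4% of all 9931 genes. REST cKO sham held the highest group mean for 18 members (23.1%), against 11.6% of all genes, and REST cKO day 1, with 2 libraries, for 21 (26.9%), against 27.3%. Dixon's test was run on 62 sets of 4 libraries and set 0 apart.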
